A study of Mus musculus with 9 samples.

Results

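The stem cell heptad is a set of 7 transcription regulators, GATA2, TAL1, LYL1, LMO2, RUNX1, ERG and FLI1, whose messenger RNA was followed here through the knockdown of Gata2 and of Pu.1 in mouse blood progenitors. Members were found by the accession that the array design gives each probe, matched to the current symbols of the 7 genes. This gave 9 of the 41174 probes on the array, with 2 each for Gata2 and Fli1 and 1 for each of the others. All 9 read well above background on all 9 arrays and passed the filter on dim probes, so each of the 7 genes stands among the 15808 named genes that were tested.

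The cells were FDCPmix, a single mouse line of multipotent hematopoietic progenitors that self-renews in IL-3. All 3 groups received lentivirus. The control group (EV) carried the empty vector, the Gata2 KD group an shRNA directed against Gata2, and the Pu.1 KD group an shRNA directed against Pu.1, the common name of Spi1. Cells were kept in self-renewal conditions, and 5 days after transduction the viable GFP-positive cells were sorted and their total RNA hybridized to one-color Agilent arrays, 3 per group. The labels speak of triplicate samples and do not say that they came from separate cultures, so a p-value measures only the spread between these samples, which may be technical. Transduced cells alone were sorted, the knockdowns were partial, and the number of shRNA sequences per target is not given in the sources used here.

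GATA2 is a zinc finger protein, TAL1 (SCL) and LYL1 are closely related basic helix-loop-helix proteins, RUNX1 is a Runt domain protein, and ERG and FLI1 belong to the ETS family, to which PU.1 also belongs. LMO2 does not bind DNA itself but bridges TAL1 or LYL1 and a GATA factor within one complex. In blood stem and progenitor cells the 7 proteins are known for binding together at regulatory elements, including elements of their own genes, and loss of several of them impairs the formation or upkeep of stem cells.

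Because the heptad proteins act through short DNA motifs, the start sites of their own genes are shown first. RefSeq promoter windows of the build GRCm38.p6, each spanning 250 bases before and 50 after a start site, were at hand for 5 of the 7 genes and 10 start sites. They were searched on both strands for GATA motifs (AGATAA as well as AGATAG, and TGATAA as well as TGATAG), for E-boxes of the kind preferred by SCL (CAGCTG as well as CAGATG), for any E-box (CANNTG, which includes the SCL kind), for the ETS core GGAAG, for the longer form GGAAGTG favored by PU.1 (which includes the ETS core) and for the RUNX motif TGTGGT. The windows that held a GATA motif upstream of Tal1, or an ETS core upstream of Tal1 or Runx1, are printed because these were the members that changed besides Gata2 and Lmo2. ETS cores also lay upstream of Lyl1 and of Erg start sites 2 and 3, and a GATA motif upstream of Erg start site 3. Neither gene was called in any comparison. Capitals mark the GATA, SCL-type, ETS and RUNX matches, and each stretch is the 250 bases before the start site, read in the direction of the gene.
Tal1 start site 1, chr4:115056176-115056425, plus strand: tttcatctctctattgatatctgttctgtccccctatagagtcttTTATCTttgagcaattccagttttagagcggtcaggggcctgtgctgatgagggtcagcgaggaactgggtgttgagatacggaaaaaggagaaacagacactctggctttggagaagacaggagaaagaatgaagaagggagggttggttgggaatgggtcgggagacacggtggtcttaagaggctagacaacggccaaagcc
Tal1 start site 2, chr4:115057561-115057810, plus strand: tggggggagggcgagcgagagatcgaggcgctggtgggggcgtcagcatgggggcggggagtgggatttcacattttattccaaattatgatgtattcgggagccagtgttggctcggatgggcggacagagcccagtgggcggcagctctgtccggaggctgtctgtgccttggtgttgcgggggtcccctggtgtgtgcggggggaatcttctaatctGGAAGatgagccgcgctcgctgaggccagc
Runx1 start site 1, chr16:92826075-92826324, minus strand: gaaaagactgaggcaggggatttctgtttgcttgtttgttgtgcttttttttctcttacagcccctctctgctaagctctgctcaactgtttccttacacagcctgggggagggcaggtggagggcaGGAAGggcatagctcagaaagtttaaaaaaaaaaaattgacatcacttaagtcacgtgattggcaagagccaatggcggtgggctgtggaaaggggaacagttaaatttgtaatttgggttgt

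Past the start site, 3 shorter stretches held an SCL-type or RUNX match, shown because these are motifs of heptad proteins at the starts of heptad genes.
Tal1 start site 1, chr4:115056424-115056453, plus strand: ccgctgaacgagCATCTGggaggcggagat
Gata2 start site 2, chr6:88198669-88198698, plus strand: tgcaggagtcggCAGCTGgcgccagggcgg
Runx1 start site 1, chr16:92826025-92826054, minus strand: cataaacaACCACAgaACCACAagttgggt

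With the start site counted as 0, the GATA match of Tal1 began at -205 and lay on the opposite strand. The ETS core began at -30 before the other Tal1 start site and at -123 before Runx1. The SCL-type matches of Tal1 and Gata2 began at 10 and 17, and the 2 RUNX matches of Runx1 at 28 and 36, also on the opposite strand. GATA motifs were found in 2 of the 10 heptad windows, those of Tal1 start site 1 and Erg start site 3, while 29.8% of all 32851 windows held one. SCL-type E-boxes were in 2 of 10 (30.6% of all windows), E-boxes of any kind in 5 (72.3%), ETS cores in 5 (71.4%), PU.1-type matches in 0 (11%) and RUNX motifs in 1 (16.8%). For every motif the share in these few heptad windows was thus below that of all windows, a difference that was not tested. Several windows belong to the same gene. Counted by gene, E-boxes of any kind were found in 5 of the 5 genes and ETS cores in 4. GATA motifs and SCL-type E-boxes were found in 2 genes each, RUNX motifs in 1 and PU.1-type matches in 0. Such matches describe the letters of these windows and do not show binding.

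A level is the log2 intensity of a probe minus the 75th percentile of its array, and a change is a difference of group means on this log2 scale. Changes were tested with limma over all 36585 probes that passed the filter, a change being called at a Benjamini-Hochberg adjusted p under 0.05. On each array 80.4% to 89.6% of spots were well above background and none was saturated, and EV replicate 3 resembled the remaining arrays least (mean Pearson correlation across probes of 0.960, against 0.971 or more). The arrays came from 3 slides, each with 1 array of every group. EV replicate 1, Gata2 KD replicate 3 and Pu.1 KD replicate 3 shared slide 1, the replicates numbered 3, 2 and 1 shared slide 2, and those numbered 2, 1 and 2 shared slide 3, in the same order of groups. Slide was therefore fitted as a block in an alternative, and differences are also given within slides.

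Before the members, the sorted cells were checked against markers. All 12 genes of a pan-hematopoietic list read well above background on the 9 arrays, and the summed level of the list, on the linear scale relative to the 75th percentile, was 241.5 to 286.3 in EV, 312.9 to 341.4 in Gata2 KD and 222.1 to 246.5 in Pu.1 KD. Lists of other blood cells moved with the groups. Neutrophil granule genes summed to 255.6 to 285.5 in EV, 1175 to 1397 in Gata2 KD and 114.5 to 135.1 in Pu.1 KD, with 13 of 14 members called higher in Gata2 KD (4.21% of all named genes) and 10 called lower in Pu.1 KD (2.16% of all named genes). The latter count was 6 with scaling to the median and 6 with the replicate block. Monocyte and macrophage genes summed to 36.41 to 39.84, 233.7 to 290.7 and 15.81 to 16.93 in the same order. The sums of both myeloid lists thus stood apart without overlap, highest in Gata2 KD and lowest in Pu.1 KD. Of 13 monocyte and macrophage genes tested, 10 were called higher in Gata2 KD (4.21% of all named genes). In Pu.1 KD 4 were called lower (2.16% of all named genes), a count of 2 to 7 over the alternatives. The brightest was Lyz2, with means of 4.99, 7.70 and 3.62, while Csf1r, Ctss and Cx3cr1 had higher means in Pu.1 KD than in EV. Mast cell and basophil genes summed to 249.3 to 313.8 in EV, 112.7 to 150 in Gata2 KD and 208.3 to 242.6 in Pu.1 KD. Erythroid genes summed to 26.33 to 31.16, 20.05 to 24.69 and 38.87 to 45.55, and megakaryocyte genes to 71.48 to 90.33, 73.96 to 105.4 and 161.6 to 188.7. The sums of the last 2 lists were highest in Pu.1 KD. There 3 of 12 erythroid genes were called higher than in EV, and 4 of 13 megakaryocyte genes (1.45% of all named genes). These counts ran from 0 to 4 and from 1 to 6 over the alternatives. Of the megakaryocyte genes 1 was called lower and 8 were not called. Pf4, the brightest, rose from a mean of 5.14 in EV to 6.76 in Pu.1 KD, while Gp1ba fell from 1.87 to 0.53. Endothelial and lymphoid genes, markers of other cell types that express heptad members, summed to no more than 8.059 on any array, and the fibroblast and stroma list to 10.83 to 12.43, 22.22 to 27.27 and 6.165 to 6.981. In that last list 1 of 10 members, Thy1, was called, and the median change of the list in Gata2 KD was -0.04. No marker on any of these lists was below background on all 9 arrays. The part of these shifts in the results that follow was not tested, and in RNA from a mixed population fewer cells of a type cannot be told apart from less RNA per cell.

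Against EV, Gata2 KD lowered Gata2 and Tal1 and raised Lmo2, and the other 4 heptad genes were not called. Thus 3 of 7 heptad genes were called, 1 of them the target of the shRNA, where 7.15% of all named genes tested were called (4.21% higher and 2.95% lower). The groups did not overlap for 4 heptad genes, Erg being the additional one, against 23.1% of all named genes, and 4 of 7 had an unadjusted p under 0.05 (17.9% of all named genes). By probe, 4 of 9 were called, 1 higher and 3 lower, against 5.2% of all tested probes (2.96% higher and 2.24% lower). The 3 lower include both probes of Gata2, whose calls were set by the design. The median change of the 7 was -0.39, and that of all named genes -0.09. The count of 3 fell to 1, Gata2 alone, without EV replicate 2, without any single Gata2 KD array or without Pu.1 KD replicate 1, and it was 2 without any of the others.

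Pu.1 KD lowered Runx1, and the remaining 6 genes were not called, where 3.61% of all named genes were called (1.45% higher and 2.16% lower). The groups did not overlap for 4 heptad genes, Runx1, Tal1, Lyl1 and Erg, against 20.6% of all named genes. At an unadjusted p under 0.05 there were 5 of the 7, where 14.4% of all named genes passed. By probe, 1 of 9 was called, against 2.7% of all tested probes (1.27% higher and 1.42% lower). The median change was -0.15, and that of all named genes -0.04. The count of 1 fell to 0 without EV replicate 2 or 3, without Gata2 KD replicate 1 or 2, and without any single Pu.1 KD array. Both comparisons use the same EV arrays, so their changes are not independent.

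Compared directly, Gata2 KD held less Gata2 and Tal1 than Pu.1 KD did. This makes 2 of 7 genes called, Gata2 being the target of an shRNA, where 12.4% of all named genes were called (6.77% higher and 5.6% lower). The groups did not overlap for 5 heptad genes, Gata2, Tal1, Lyl1, Lmo2 and Runx1, against 30.1% of all named genes, and 4 of 7 had an unadjusted p under 0.05 (22.5% of all named genes). By probe, 3 of 9 were called, all lower in Gata2 KD, against 9.63% of all tested probes (4.86% higher and 4.77% lower). These were both probes of Gata2, whose calls were set by the design, and the probe of Tal1. The median change was -0.12, and that of all named genes -0.03. This count was 2 without any 1 of the 9 arrays.

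**Figure D1:**
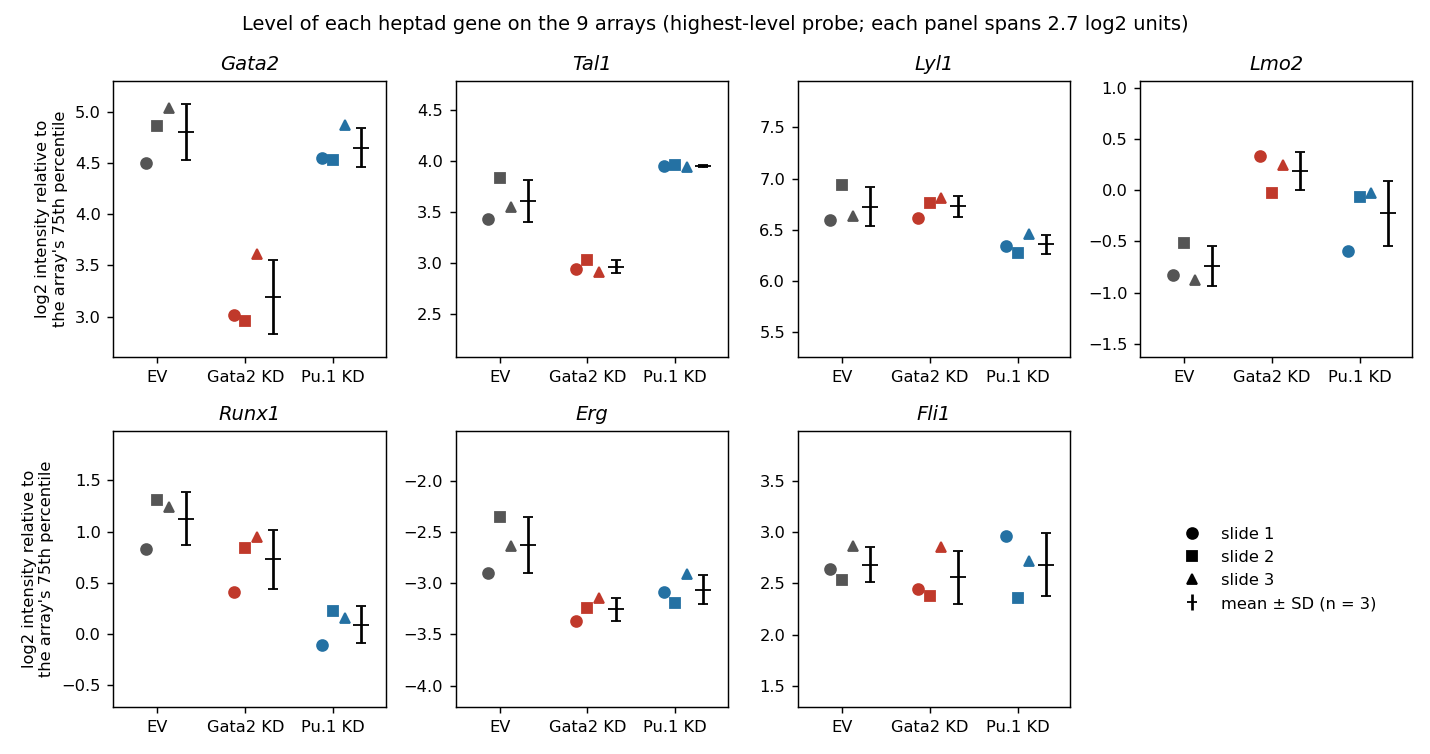
Level of each of the 7 heptad genes (vertical axis, log2 intensity minus the array's 75th percentile; every panel spans the same number of log2 units) in EV, Gata2 KD and Pu.1 KD (horizontal axis). Each point is 1 array, its shape gives the slide, and the bar beside each group is the mean ± SD (n = 3). Gata2 and Tal1 sat lowest in Gata2 KD, Runx1 sat lowest in Pu.1 KD and Lmo2 sat higher in Gata2 KD than in EV, each without overlap, while the 3 groups of Fli1 overlapped.

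GATA2 is needed for the survival and expansion of blood stem and progenitor cells, and Gata2 was the target of one of the shRNAs. Its brighter probe read 4.50, 5.04 and 4.86 in EV replicates 1 to 3, 3.61, 2.96 and 3.01 in Gata2 KD, and 4.53, 4.87 and 4.55 in Pu.1 KD. The Gata2 KD arrays lay below all others, and the EV and Pu.1 KD arrays overlapped. The means were 4.80 ± 0.27 in EV, 3.19 ± 0.36 in Gata2 KD and 4.65 ± 0.19 in Pu.1 KD (SD, n = 3). Gata2 fell by 1.61 in Gata2 KD (SE 0.23, limma adjusted p = 0.00414), to 32.8% of the EV level, and the difference was -1.91 to -1.43 within slides.

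The second Gata2 probe read 4.02, 4.38 and 4.41 in EV, 2.66, 2.47 and 2.27 in Gata2 KD, and 4.16, 4.32 and 3.93 in Pu.1 KD. It gave the same order, with a fall of 1.80 (SE 0.18, limma adjusted p = 0.000616). Both probes were called under every alternative run for them (21 and 20), with a highest adjusted p of 0.0266 for the first and 0.00611 for the second. In Pu.1 KD the changes were -0.15 and -0.13 (limma adjusted p = 0.964 and 0.952), with 95% intervals of -0.67 to 0.37 and -0.54 to 0.28. These intervals leave room for changes in either direction. The direct difference of Gata2 KD from Pu.1 KD was -1.46 for the first probe and -1.67 for the second (limma adjusted p = 0.00406 and 0.000531).

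The target of the other shRNA, Spi1, is not a heptad gene but is an ETS relative of Erg and Fli1. It read -1.66, -1.86 and -2.07 in EV, -0.66, -0.36 and -0.39 in Gata2 KD, and -3.62, -3.64 and -3.52 in Pu.1 KD. The 3 groups did not overlap, and the arrays labelled Pu.1 KD held the lowest Spi1 levels.

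Tal1 encodes TAL1, which together with its E-protein partners, LMO2 and GATA factors drives the erythroid and megakaryocyte lineages and is required to specify blood. Its probe read 3.43, 3.55 and 3.83 in EV, 2.92, 3.03 and 2.95 in Gata2 KD, and 3.95, 3.94 and 3.94 in Pu.1 KD. The order was Pu.1 KD above EV above Gata2 KD, with no overlap between neighbors, and the Pu.1 KD arrays differed by an SD of only 0.0067 on the log2 scale. In Gata2 KD Tal1 fell by 0.64 (SE 0.14, limma adjusted p = 0.0367), to 64.3% of EV. The fall was present on each slide, at -0.80 to -0.48, and its adjusted p with slide as a block was 0.0188.

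The call of Tal1 in Gata2 KD was close to the threshold and held under 9 of 21 alternatives, with an adjusted p between 0.00506 and 0.195. Without single arrays it was lost in 8 cases. The adjusted p was 0.0941 and 0.0814 without EV replicates 2 and 3, it was 0.115, 0.116 and 0.132 without Gata2 KD replicates 1, 2 and 3, and it was 0.0765, 0.0680 and 0.0723 without Pu.1 KD replicates 1, 2 and 3. In Pu.1 KD the change of Tal1 was 0.34, with a 95% interval of 0.02 to 0.66, and it was not called (limma adjusted p = 0.349). The difference between the knockdowns was larger, at -0.98 (SE 0.14, limma adjusted p = 0.00255). It was -1.03 to -0.92 within slides and was called under all 21 alternatives, with a highest adjusted p of 0.0163.

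Lyl1 encodes the closest relative of TAL1, which can stand in for it in adult stem cells. It read 6.60, 6.63 and 6.94 in EV, 6.81, 6.76 and 6.62 in Gata2 KD, and 6.27, 6.46 and 6.34 in Pu.1 KD. EV and Gata2 KD overlapped, and the Pu.1 KD arrays lay below both. In Gata2 KD the change was 0.0052 (limma adjusted p = 0.997, 95% interval -0.33 to 0.34), and its sign turned without EV replicate 1 or 2 or Gata2 KD replicate 1 or 2. In Pu.1 KD it was -0.37 (limma adjusted p = 0.324, 95% interval -0.70 to -0.04) and between the knockdowns 0.37 (limma adjusted p = 0.195, 95% interval 0.04 to 0.70). Neither was called, although both differences had the same sign on all 3 slides. The paralogs thus had different group orders, Tal1 being highest and Lyl1 lowest in Pu.1 KD, and the difference between their changes was not tested.

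Lmo2 encodes the LIM-only bridging protein of the TAL1 complex. Its probe read -0.83, -0.88 and -0.52 in EV, 0.24, -0.02 and 0.34 in Gata2 KD, and -0.06, -0.03 and -0.59 in Pu.1 KD. The EV and Gata2 KD arrays did not overlap, the Gata2 KD arrays lay above the Pu.1 KD arrays by a narrow margin, and the Pu.1 KD and EV arrays overlapped. In Gata2 KD Lmo2 rose by 0.93 (SE 0.20, limma adjusted p = 0.0342), which is 1.90-fold, with 0.50 to 1.17 within slides and an adjusted p of 0.0416 with slide as a block. It was the only heptad gene called higher in any comparison as reported here.

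The rise of Lmo2 held under 12 of 21 alternatives, with an adjusted p between 0.00745 and 0.137. It was lost without EV replicate 1 or 2 (0.107 and 0.118), without Gata2 KD replicate 1, 2 or 3 (0.110, 0.0692 and 0.137) and without Pu.1 KD replicate 1 (0.0601). In Pu.1 KD the change of Lmo2 was 0.51 (limma adjusted p = 0.317, 95% interval 0.06 to 0.97), and between the knockdowns it was 0.41 (limma adjusted p = 0.345, 95% interval -0.05 to 0.87). Lmo2 is also expressed in myeloid cells, whose summed marker levels were highest on the same Gata2 KD arrays, and their part in the rise was not tested.

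**Figure D2:**
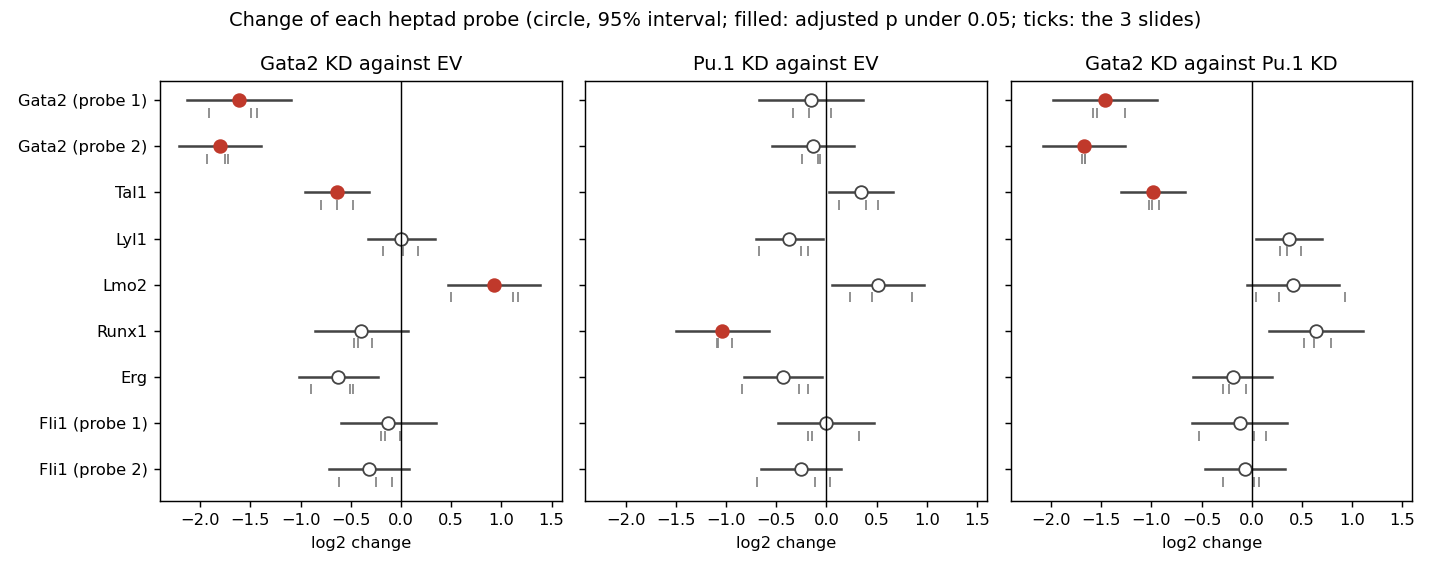
Change of each of the 9 heptad probes (horizontal axis, log2 change) in the 3 comparisons. Circles are the fitted changes with their 95% intervals, filled where the adjusted p was under 0.05, and ticks below them are the differences within the 3 slides. Filled circles are those of both Gata2 probes, Tal1 and Lmo2 in Gata2 KD against EV, of Runx1 in Pu.1 KD against EV, and of both Gata2 probes and Tal1 between the knockdowns.

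Runx1 encodes RUNX1, which is required for the emergence of blood stem cells and later for megakaryocyte and lymphoid development. It read 0.83, 1.23 and 1.31 in EV, 0.95, 0.84 and 0.40 in Gata2 KD, and 0.22, 0.16 and -0.11 in Pu.1 KD. The order was EV, Gata2 KD, Pu.1 KD, with overlap between the first pair and none between Pu.1 KD and either of the others. In Pu.1 KD Runx1 fell by 1.04 (SE 0.20, limma adjusted p = 0.0370), to 48.8% of EV. The fall was nearly the same on each slide, at -1.09 to -0.94, and its adjusted p with slide as a block was 0.00542.

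The call of Runx1 in Pu.1 KD held under 10 of 21 alternatives, with an adjusted p between 0.000298 and 0.177. It was lost without EV replicate 2 or 3 (0.123 and 0.106), without Gata2 KD replicate 1 or 2 (0.0504 and 0.0780) and without Pu.1 KD replicate 1, 2 or 3 (0.111, 0.115 and 0.149). In Gata2 KD the change was -0.39 (limma adjusted p = 0.466, 95% interval -0.86 to 0.07), and it was called with normexp background correction (0.0404) and in the deposited log2 values (0.0149). Between the knockdowns Runx1 was higher in Gata2 KD by 0.64, which was not called (limma adjusted p = 0.103, 95% interval 0.18 to 1.11). With slide as a block it was (adjusted p = 0.0075), as it also was with normexp (0.00453), with the deposited table (0.00185) and with limma's trend and robust options (0.0465). The summed level of the megakaryocyte marker list, in a lineage that uses RUNX1, was higher on the same Pu.1 KD arrays where Runx1 was lower. However, 8 of the 13 tested genes of that list were not called in Pu.1 KD against EV. The part of the list in the result was not tested.

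Erg and Fli1 encode ETS factors that support stem cell self-renewal and megakaryocyte development. Erg read -2.90, -2.64 and -2.35 in EV, -3.14, -3.24 and -3.37 in Gata2 KD, and -3.19, -2.91 and -3.08 in Pu.1 KD. The EV arrays lay above all those of both knockdowns, by a narrow margin for Pu.1 KD, and the knockdowns overlapped with each other. Neither difference was called, with -0.62 in Gata2 KD (SE 0.17, limma adjusted p = 0.0920, 95% interval -1.02 to -0.23) and -0.43 in Pu.1 KD (SE 0.17, limma adjusted p = 0.331, 95% interval -0.83 to -0.04). Both were below 0 on all 3 slides, and with slide as a block the adjusted p was 0.0544 and 0.173. Erg was the dimmest heptad gene, its mean level lying at the 34.5th percentile of tested probes. Over 21 alternatives its change ran from -0.76 to -0.33 in Gata2 KD and from -0.57 to -0.19 in Pu.1 KD, and it was called under none. Between the knockdowns the difference was -0.19 (limma adjusted p = 0.795, 95% interval -0.58 to 0.20).

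Fli1 was not called in any comparison. Its brighter probe read 2.65, 2.87 and 2.54 in EV, 2.86, 2.37 and 2.44 in Gata2 KD, and 2.35, 2.72 and 2.97 in Pu.1 KD. All 3 groups overlapped, and the changes were -0.12 in Gata2 KD (limma adjusted p = 0.946) and -0.0026 in Pu.1 KD (limma adjusted p = 1.00), the latter turning to a positive sign under 5 of 21 alternatives, among them quantile normalization and scaling to the median. The 95% intervals were -0.60 to 0.35 and -0.48 to 0.47, so changes of that size were not excluded by these arrays. The second probe read 1.39, 1.36 and 1.90 in EV, 1.27, 1.29 and 1.14 in Gata2 KD, and 1.21, 1.25 and 1.43 in Pu.1 KD. Its changes were -0.32 and -0.25 (limma adjusted p = 0.504 and 0.732), and EV replicate 3 was its highest array.

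**Figure D3:**
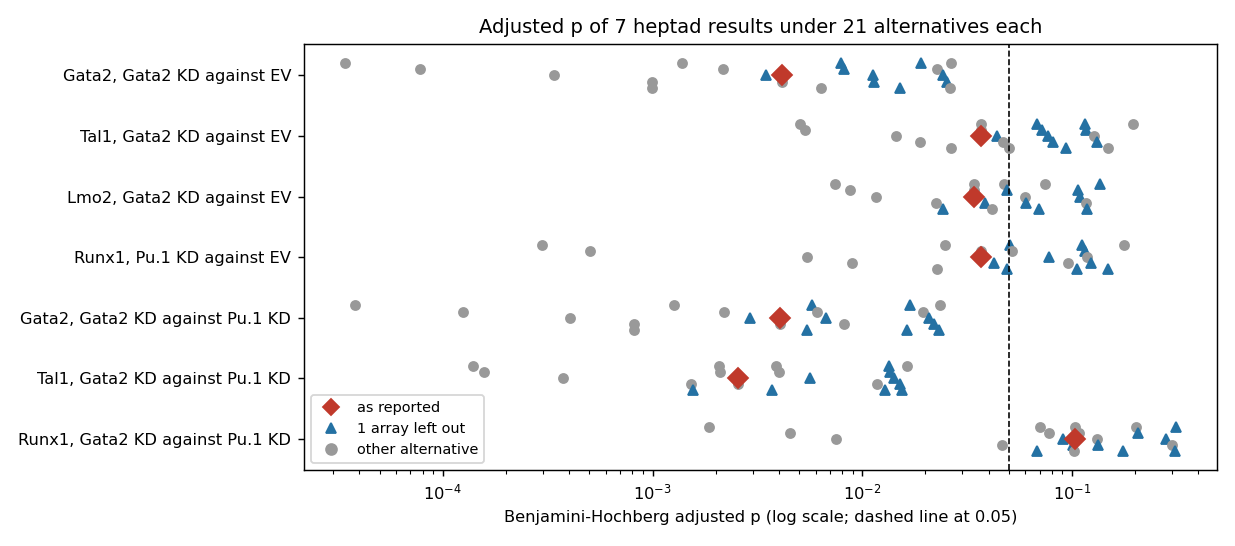
Adjusted p (horizontal axis, log scale, dashed line at 0.05) of 7 heptad results, each as reported (diamond), with 1 array left out (triangles) and under the other alternatives (circles). Gata2 in Gata2 KD against EV, and both Gata2 and Tal1 between the knockdowns, stayed below 0.05 throughout, while Tal1 and Lmo2 in Gata2 KD and Runx1 in Pu.1 KD had values on both sides of the line.

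A moderated F test over the 3 groups called Gata2 (adjusted p = 0.00393 and 0.00058 for its 2 probes), Tal1 (0.0067) and Runx1 (0.0338), thus 3 of 7 genes where 11.7% of all named genes were called. Lmo2 (0.0531), Erg (0.126), Lyl1 (0.263) and Fli1 (1.00) were not. Gata2 was the target of an shRNA, so its call was set by the design. The count of called genes was 2 without EV replicate 2 or 3, Gata2 KD replicate 1 or 2, or Pu.1 KD replicate 1 or 2.

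For the genes that the F test called, the named genes with the most similar profile were sought among 14201 candidates, as the root mean square difference between their levels over the 9 arrays after each gene's own mean was subtracted. Closest to Gata2 were Ube2e1 (0.148), Slc35g1 (0.160) and Gpsm2 (0.175), where the profile of Gata2 itself had a root mean square of 0.762. Like Gata2, these 3 were lower in Gata2 KD than in EV and Pu.1 KD. Ube2e1, which encodes a ubiquitin-conjugating enzyme, had a mean of 2.65 in EV, 1.20 in Gata2 KD and 2.73 in Pu.1 KD. Closest to Tal1, whose own value was 0.419, were Hscb (0.0876), Crtap (0.0931) and Smtnl2 (0.0939). Hscb, which encodes a co-chaperone of iron-sulfur cluster assembly, had means of 3.24, 2.63 and 3.68 in the same order of groups, the order of Tal1. Closest to Runx1, at 0.472, were Pex7 (0.137), Gpt2 (0.138) and Alg14 (0.145). Pex7, which encodes a receptor for peroxisomal import, had means of 2.04, 1.86 and 1.09, and was lowest in Pu.1 KD as Runx1 was. Because these genes were picked for the smallest difference on the same 9 arrays, their shared group order follows from the search. These likenesses describe 9 arrays and were not tested.

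The heptad proteins act in larger complexes, and a list of 20 such partners (LIM-binding proteins and their SSBP cofactors, E-proteins, FOG proteins, CBFB, ETO proteins and corepressors or coactivators) was described next, with 19 on the array. In Gata2 KD 0 partners were called higher and 1 lower with limma (0 and 5 at an unadjusted p under 0.05), where 4.21% and 2.95% of all named genes were called (7.72% and 10.2% unadjusted). The median change was -0.28, against -0.09 for all named genes. The 1 was Zfpm1, which encodes FOG1, the cofactor of GATA factors. It fell by 0.86 (SE 0.13, adjusted p = 0.00611), to 55.2% of EV, and was called under 19 of 20 alternatives, the exception being scaling to the median (adjusted p = 0.0827). In Pu.1 KD 0 partners were called in either direction with limma (2 higher and 1 lower at an unadjusted p under 0.05, against 6.03% and 8.38% of all named genes), with changes from -0.57 to 0.49. Between the knockdowns 0 were called higher and 3 lower in Gata2 KD with limma (1 and 6 unadjusted), where 6.77% and 5.6% of all named genes were called (10.8% and 11.7% unadjusted). The 3 were Zfpm1 at -1.33 and Kdm1a and Rcor1 at -0.56 and -0.54. Their count ran from 1 to 7 over 20 alternatives. Leaving out EV replicate 3 gave 2, and leaving out any other single array gave 1. The last pair, which encode the LSD1 demethylase and its CoREST partner, lie outside the rule for named genes and were chosen after their values were seen. With slide as a block, 3 partners were called lower in Gata2 KD against EV, and 1 higher and 5 lower between the knockdowns.

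Relatives of the heptad genes were described in the same way. Of 19 paralogs tested, 3 were called higher and 1 lower in Gata2 KD (15.8% and 5.26% of the list, against 4.21% and 2.95% of all named genes), with a median change of -0.0057, that of all named genes being -0.09. Runx2, the relative of Runx1 best known for its role in bone, rose by 3.01 (SE 0.22, adjusted p = 0.000133), from -3.88, -3.63 and -3.84 in EV to -0.32, -0.94 and -1.08 in Gata2 KD, an 8.04-fold difference. With normexp background correction the rise was 1.90. The Runx1 arrays of the same groups overlapped. Another of the 3 was Lmo1, the relative of Lmo2, whose probe was well above background on all 3 Gata2 KD arrays, on 1 EV array and on no Pu.1 KD array. It passed the filter on dim probes through the group in which it was high, so it had to differ and its change is not given. Lmo1 is counted among the 3 called higher, so the 15.8% is not evidence about the list. Spi1 rose by 1.39 (SE 0.16, adjusted p = 0.0012). Gata1, the erythroid relative of Gata2, fell by 1.08 (SE 0.19, adjusted p = 0.0128), to 47.2% of EV, and this call was lost under scaling to the median (0.0771) and without Gata2 KD replicate 1 or 3 (0.0539 and 0.0528).

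In Pu.1 KD 0 paralogs were called higher and 2 lower with limma (1 and 4 at an unadjusted p under 0.05), where 1.45% and 2.16% of all named genes were called (6.03% and 8.38% unadjusted). The median change was -0.03, that of all named genes -0.04. One was Spi1, the target, whose call was set by the design. It fell by 1.73 (SE 0.16, adjusted p = 0.00178), to 30.1% of EV, and with normexp by 1. The other was Lmo4, a LIM-only relative of Lmo2, which fell by 1.48 (SE 0.19, adjusted p = 0.00699), to 35.9% of EV, and read 4.37, 4.43 and 4.79 in EV and 2.86, 3.17 and 3.13 in Pu.1 KD. Between the knockdowns 4 paralogs were called higher in Gata2 KD and 1 lower (6.77% and 5.6% of all named genes). The 4 include Lmo1 and the shRNA target Spi1, whose calls were set by the filter and by the design. Their share is therefore not evidence about the list. The 1 called lower was Gata1 at -1.50 (adjusted p = 0.00136).

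A list of 20 genes known as regulatory targets of heptad factors in blood cells was described last, and all 20 were tested. In Gata2 KD 4 were called higher and 4 lower (20% of the list each way, against 4.21% and 2.95% of all named genes). Like the partner and paralog lists, this list was chosen with earlier results of these data known, so these shares are not evidence about it. The median change was -0.13, that of all named genes -0.09. The 4 lower were 2 when only the groups compared were fitted. Higher were Cd34, a surface marker of progenitors, by 2.17 (SE 0.16, adjusted p = 0.000147), Gfi1, a repressor needed by neutrophils and stem cells, by 2.06 (SE 0.19, adjusted p = 0.000424), Spi1 and Kit. Lower were Gfi1b, the erythroid and megakaryocyte relative of Gfi1, by -1.33 (SE 0.21, adjusted p = 0.00741), Meis1, a homeobox partner in stem cells, by -1.28 (SE 0.21, adjusted p = 0.0103), Gata1, and Cdkn1c at -0.995, the last being outside the rule for named genes. The 2 Gfi genes thus moved in opposite directions. Meis1 was not called when only the groups compared were fitted (0.0560) or without Gata2 KD replicate 2 (0.0580), and its change was -0.79 with normexp.

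In Pu.1 KD Kit, the stem cell factor receptor, rose by 1.41 (SE 0.15, adjusted p = 0.00332), which is 2.66-fold. In the same comparison 2 members of the list were called lower (10% of the list, against 2.16% of all named genes), Spi1 and Cd34. Spi1 was the target of the shRNA, so its call was set by the design and the share is not evidence about the list. Kit was also higher in Gata2 KD, by 0.75 (adjusted p = 0.0241), a call lost under 9 of 20 alternatives. Single arrays ended it in 6 cases, with adjusted p of 0.0833 and 0.0852 without EV replicates 1 and 2, 0.0882, 0.0634 and 0.0895 without Gata2 KD replicates 1 to 3, and 0.0507 without Pu.1 KD replicate 3. Cd34 fell by 0.92 in Pu.1 KD (SE 0.16, adjusted p = 0.0263), opposite to its change in Gata2 KD. This call was lost under 10 of 20 alternatives, among them leaving out EV replicate 2 or 3 (0.0914 and 0.0771), Gata2 KD replicate 2 or 3 (0.0626 and 0.0520) or Pu.1 KD replicate 1, 2 or 3 (0.102, 0.0916 and 0.113).

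Between the knockdowns 3 targets were called higher and 8 lower in Gata2 KD (15% and 40% of the list, against 6.77% and 5.6% of all named genes). The 8 fell to 5 with scaling to the median, to 5 without Gata2 KD replicate 1 or 2 or Pu.1 KD replicate 2, and to 4 without Gata2 KD replicate 3 or Pu.1 KD replicate 1 or 3. The 3 were Spi1, itself the target of the Pu.1 shRNA, Cd34 and Gfi1, at 3.12, 3.09 and 2.61. Spi1 and Gata1 stand in both the paralog and the target lists. Gata3 of the paralogs also stands in the mast cell and basophil marker list. Of the targets, Itga2b also stands in the megakaryocyte marker list, and Cd34 and Kit in the pan-hematopoietic one. Eng, Tek and Cdh5 of the targets stand in the endothelial one. The counts of these lists are therefore not separate observations.

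**Figure D4:**
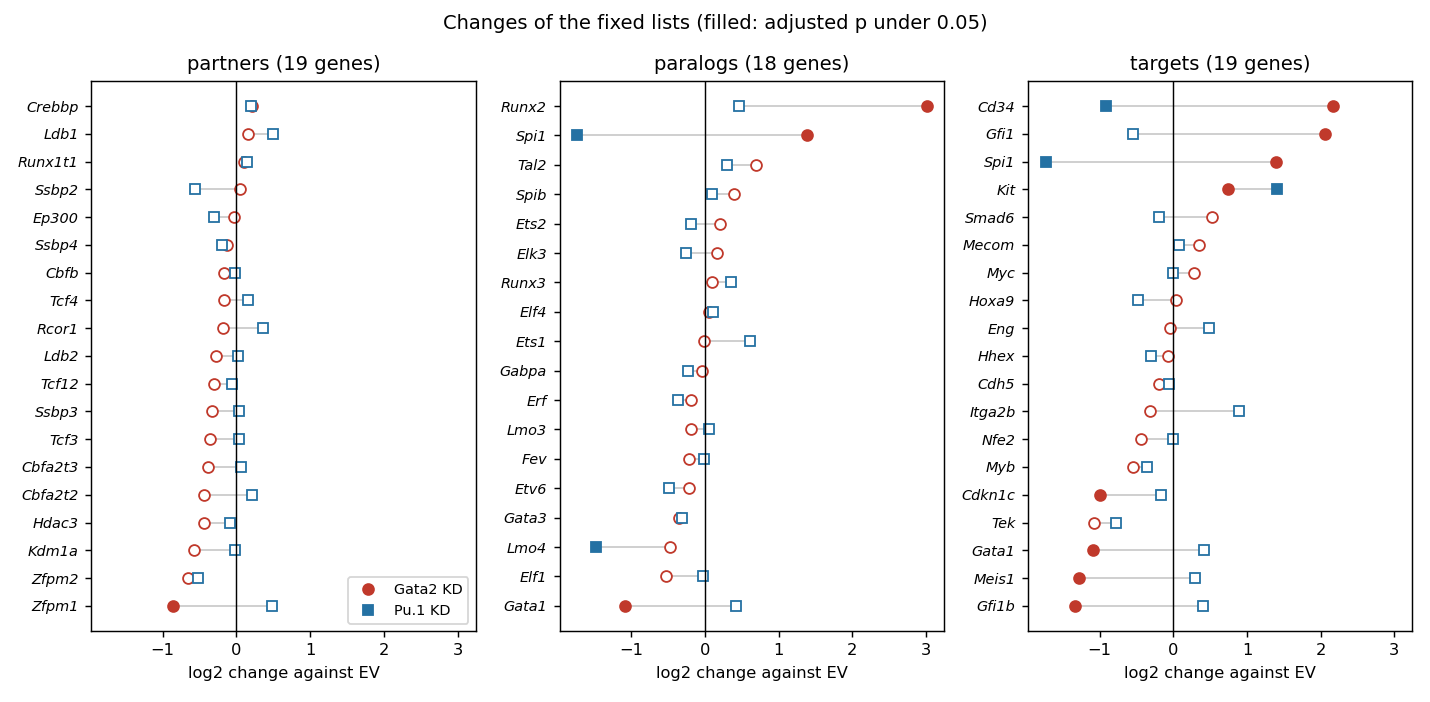
Log2 change against EV (horizontal axis) of tested members of 3 lists (19, 18 and 19 genes, with Lmo1 left out), complex partners, paralogs and known targets of the heptad, in Gata2 KD (circles) and Pu.1 KD (squares), filled where the adjusted p was under 0.05. The partners sat mostly near 0 with Zfpm1 as the only filled symbol, while Runx2, Cd34 and Gfi1 lay above 2 in Gata2 KD and Spi1 lay on opposite sides of 0 in the knockdowns.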

How the data were processed

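For each of 9 arrays the authors deposited Agilent Feature Extraction 10.1.1.1 intensity values, of which the processed signal (background-subtracted, not normalized between arrays) was used, and 1 table of log2 values, used as an alternative. The array design was annotated to mm8. Log2 processed signal was averaged over the spots of a probe (control and outlier-flagged spots left out), and the 75th percentile of the array was subtracted. Probes well above background on at least 3 of 9 arrays, with at least 2 values in each group, were tested with limma 3.58.1 in R 4.3.3 (group means over all 9 arrays, lmFit and eBayes, two-sided, Benjamini-Hochberg over 36585 probes, threshold 0.05). Genes with several probes are represented by the brightest. With symbols from the RefSeq gene table of GRCm38.p6, 23374 of 41174 probes were named (16535 genes). The scanner files held no mean signal, so normexp (offset 50) used the median signal. The calculations were tested on simulated data. The number of arrays limits precision.

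Named genes were the heptad, the members of the 3 lists called against EV (at most 6 a list and comparison, largest first) and the 3 nearest profiles of genes called by the F test. The heptad genes, the lists and the tests were chosen with earlier results of these data known. The result of 1 gene of the target list is not reported here. Alternatives were background correction, normalization, filter, spots, fit, blocks, the mean over a gene's probes and each array left out.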

Additional observations from a re-analysis of the deposited data

How the results depend on the processing

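The changes of Gata2 in Gata2 KD, and of Gata2 and Tal1 between the knockdowns, stayed called in the same direction under all 21 alternatives. The 3 heptad genes (4 probes) called in Gata2 KD against EV became 1 gene (2 probes) with scaling to the median, with only the groups compared in the fit and with the replicate block, and with single arrays left out they were 1 to 2 genes and 2 to 3 probes. The 1 gene and 1 probe called in Pu.1 KD against EV became 0 with scaling to the median, without a filter on dim probes, with only the groups compared and with the replicate block, and 0 to 1 with single arrays left out. The cause of these losses was not tested, except that fits with arrays or a group left out rest on fewer samples. With slide as a block 3 genes were called in Gata2 KD, 1 in Pu.1 KD and 3 between the knockdowns. Scaling to the median raised the share of calls that were higher in Gata2 KD from 57% to 69.7% of probes.

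Between arrays of one number on different slides, the correlations of deviations ran from -0.552 to 0.351. This was much like the -0.63 to 0.349 between arrays of different groups sharing neither number nor slide. Between arrays of one slide they ran from -0.0408 to 0.719. Among the latter, EV and Pu.1 KD replicates 2 (0.652) and Gata2 KD and Pu.1 KD replicates 3 (0.517) also shared a number, so number and slide cannot be told apart there. With the replicate block the adjusted p was 0.128 for Tal1 and 0.117 for Lmo2 in Gata2 KD and 0.118 for Runx1 in Pu.1 KD. Over all probes the calls ranged from 1072 to 2886 in Gata2 KD (1902 as reported) and from 223 to 1875 in Pu.1 KD (986).

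Only changes near 0 reversed. Lyl1 in Gata2 KD ranged from -0.058 to 0.114 with single arrays left out. Fli1 in Pu.1 KD became 0.0227 with quantile normalization, 0.0354 with scaling to the median and 0.0427 in the deposited values, and ranged from -0.146 to 0.160 with single arrays left out. Between the knockdowns Fli1 ranged from -0.285 to 0.0210 over single arrays left out. Its second probe became 0.0267 with normexp and 0.0137 in the deposited values, and ranged from -0.108 to 0.00075. A planned comparison of protein sequences was not run.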
